A study of Mus musculus with 96 samples.

Results

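The interferon response genes described here are 39 mouse genes that cells are known to transcribe after interferon signalling. Their probes were found by gene symbol in the platform annotation. Of the 25697 probes on the array, 59 carried the symbol of a listed gene, and they covered 38 of the 16593 genes named on the array, since Ifi44 had no probe. By role, the list held sensors of foreign nucleic acid, transcription factors and feedback proteins, oligoadenylate synthetases, antiviral effectors and interferon-inducible GTPases.

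RNA of male mice, taken from liver, skeletal muscle and 2 fat depots, brown fat (BAT) and epididymal white fat (eWAT), was hybridised to 96 Illumina bead arrays, in 16 groups of 6. WT mice (C57/Bl6) and SIRT1Tg/Tg mice, called SIRT1Tg here, had free access to a low fat diet (ad libitum in the labels). The CR group was WT under a caloric restriction that the labels name EODF, an abbreviation they do not expand, for 3 months. EX mice were WT mice on the same diet with a running wheel for 10 weeks. All mice were killed at 8 in the morning after a fast of 12 hours. The sources used here do not state the promoter of the transgene, the background strain of the SIRT1Tg mice, the number of founder lines or the age of the mice. The animal numbers in the labels fall into 2 series, lower (series A) and higher (series B). All EX animals were in series A, all CR animals in series B, and WT and SIRT1Tg held 3 animals of each in every tissue. The sources used here do not say what distinguishes the series. Animals are named below by condition and their rank by label number within it, so that WT 1 is the WT animal of the lowest number in any tissue.

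Interferons bind receptors on the cell surface, and JAK kinases then phosphorylate STAT proteins. The complex ISGF3, which holds STAT2 and IRF9, binds the interferon-stimulated response element (ISRE) of target promoters, while the gamma-activated sequence (GAS) is an element of promoters that respond to interferon gamma. The induced proteins block viral entry, translation and replication, and IRF7 amplifies the response by driving type I interferon genes. In the liver, hepatocytes and Kupffer cells are both known to respond, and a low tonic level of these transcripts is known in uninfected tissues.

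The 300 bases around the start site (250 before it and 50 after) were available for 30 of the listed genes. An ISRE core, read as GAAA, any 2 bases and GAAA again on either strand, was present in the windows of 19 of these 30 genes (63.3%) and in those of 3.99% of all 27025 genes with a window. A GAS core, TTCNNNGAA, which reads the same on both strands, was present for 9 of the 30 genes (30%) and for 9.55% of all genes. Matches are descriptions of these letters in these windows, and cores that overlap each other were counted separately. The windows below, RefSeq sequence of build GRCm38.p6 written 5′ to 3′ along the gene, are shown for 4 genes with an ISRE core and for 2 genes without one (Irf7 and Lgals3bp) on which results below turn. Capitals mark the ISRE cores.
Isg15 (chr4:156200769-156201068, minus strand): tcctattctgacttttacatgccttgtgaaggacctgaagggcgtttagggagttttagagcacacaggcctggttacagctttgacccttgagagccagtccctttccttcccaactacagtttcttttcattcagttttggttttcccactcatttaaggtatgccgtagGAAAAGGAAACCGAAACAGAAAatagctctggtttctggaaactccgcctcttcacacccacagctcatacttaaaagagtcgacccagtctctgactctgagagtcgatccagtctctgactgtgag
Ifit3 (chr19:34583279-34583578, plus strand): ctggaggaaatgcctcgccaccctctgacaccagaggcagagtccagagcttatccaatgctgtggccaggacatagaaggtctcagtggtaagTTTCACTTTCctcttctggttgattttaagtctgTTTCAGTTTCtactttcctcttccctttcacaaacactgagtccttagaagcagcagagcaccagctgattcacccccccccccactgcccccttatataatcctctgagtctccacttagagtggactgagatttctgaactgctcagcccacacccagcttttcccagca
Bst2 (chr8:71537423-71537722, minus strand): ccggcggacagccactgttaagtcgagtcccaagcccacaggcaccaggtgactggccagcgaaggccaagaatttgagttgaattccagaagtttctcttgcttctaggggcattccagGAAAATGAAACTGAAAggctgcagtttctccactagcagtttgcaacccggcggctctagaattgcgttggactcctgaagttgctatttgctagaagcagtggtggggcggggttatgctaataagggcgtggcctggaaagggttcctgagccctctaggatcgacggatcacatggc
Igtp (chr11:58199306-58199605, plus strand): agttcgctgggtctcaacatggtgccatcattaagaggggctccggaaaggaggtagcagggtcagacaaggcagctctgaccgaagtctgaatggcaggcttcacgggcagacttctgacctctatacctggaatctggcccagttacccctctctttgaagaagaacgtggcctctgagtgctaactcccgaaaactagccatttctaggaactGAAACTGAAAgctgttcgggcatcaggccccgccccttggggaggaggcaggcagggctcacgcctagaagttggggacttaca
Irf7 (chr7:141266375-141266674, minus strand): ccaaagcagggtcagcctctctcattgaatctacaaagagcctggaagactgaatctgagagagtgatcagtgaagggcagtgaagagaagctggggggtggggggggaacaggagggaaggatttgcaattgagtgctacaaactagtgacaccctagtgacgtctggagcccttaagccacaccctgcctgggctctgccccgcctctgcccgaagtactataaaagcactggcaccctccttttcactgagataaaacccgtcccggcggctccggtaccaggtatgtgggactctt
Lgals3bp (chr11:118401910-118402209, minus strand): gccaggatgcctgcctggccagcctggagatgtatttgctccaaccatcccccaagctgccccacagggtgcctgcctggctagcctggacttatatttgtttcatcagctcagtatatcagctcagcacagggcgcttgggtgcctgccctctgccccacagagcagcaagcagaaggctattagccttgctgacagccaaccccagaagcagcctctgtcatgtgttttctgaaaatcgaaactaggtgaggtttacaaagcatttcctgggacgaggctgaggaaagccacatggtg
Isg15 encodes a ubiquitin-like protein and held 3 overlapping cores, the first beginning 78 bases before the start site. Ifit3, an effector that binds other IFIT proteins on viral RNA, held a pair of cores at 156 and 122 bases before it. Bst2 (tetherin, which holds budding virus at the membrane) held a pair of overlapping cores from 130 bases before the start site, and Igtp, a GTPase of the vacuole surrounding intracellular pathogens, held 1 at 34 bases.

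Probes above background per array numbered 13130 to 15381 in eWAT, 11536 to 12847 in BAT, 8427 to 12321 in muscle and 5841 to 12752 in liver. Sirt1 itself was higher on every SIRT1Tg array than on every WT array in muscle (7.56 to 8.05 against 5.80 to 6.13, log2 intensity), BAT (7.91 to 8.54 against 6.39 to 7.21) and eWAT (9.36 to 10.14 against 6.68 to 7.54). In liver, 5 of the 6 SIRT1Tg arrays read 7.34 to 7.65 and the WT arrays 5.77 to 6.30. The liver library labelled SIRT1Tg 1 read 4.48 for Sirt1, not above background, and was also the array with 5841 probes above background. Its Sirt1 value lay below the other SIRT1Tg arrays and also below every WT array, so this gene places it in neither group. The muscle, BAT and eWAT arrays of the same animal were above every WT array. The SIRT1Tg median, counts and several single genes in liver are therefore given with and without this liver library. The liver correlations and spreads include it, as do other liver values where nothing is said. Markers of each tissue were measured in it: 6 of 6 hepatocyte genes in liver, 5 of 5 white adipocyte genes in eWAT, 5 of 5 brown adipocyte genes in BAT and 5 of 5 skeletal muscle genes in muscle. In eWAT 4 epididymis genes were also measured. The median of their summed signal was 557 in WT, 552 in SIRT1Tg, 529 in CR and 716 in EX. The highest arrays reached 8056, 1069, 21861 and 16185 in the same order. The part of epididymis RNA in the eWAT results was not tested.

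Of the 38 genes with a probe, 31 were above background on at least 6 of the 24 arrays of liver, as were 32 in eWAT, 31 in BAT and 30 in muscle, and only these were tested. Ifih1 (MDA5, a sensor of long double-stranded RNA), Ifit1, Iigp1, Oas1a, Oas3 and Xaf1 did not reach this in any tissue. Oas1b reached it in eWAT only, and Tgtp1 missed it in muscle. Probes for close relatives, such as the Oas1, Ifit3 and Gbp copies, may take up each other's RNA, so levels of single members of these families are uncertain.

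In liver, the interferon response genes were lower in SIRT1Tg than in WT for 30 of the 31 genes measured, but no single gene passed the test. The median difference was -0.52 on the log2 scale, where the median of all 9973 features was -0.02. It was -0.33 with the deposited values and -0.72 with median scaling, the extremes of 17 alternative settings, and below 0 in each. By limma with Benjamini-Hochberg adjustment over all features, 0 of the 31 genes passed an adjusted p of 0.05, a threshold that 0.0602% of all features passed. At an unadjusted p under 0.05 there were 15 of 31, all lower, beside 10.2% of all features. Without the liver library labelled SIRT1Tg 1, 31 of 31 were lower, the median was -0.54, 16 were at an unadjusted p under 0.05 (12.8% of all features) and 1, Oasl1, passed.

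**Figure D1:**
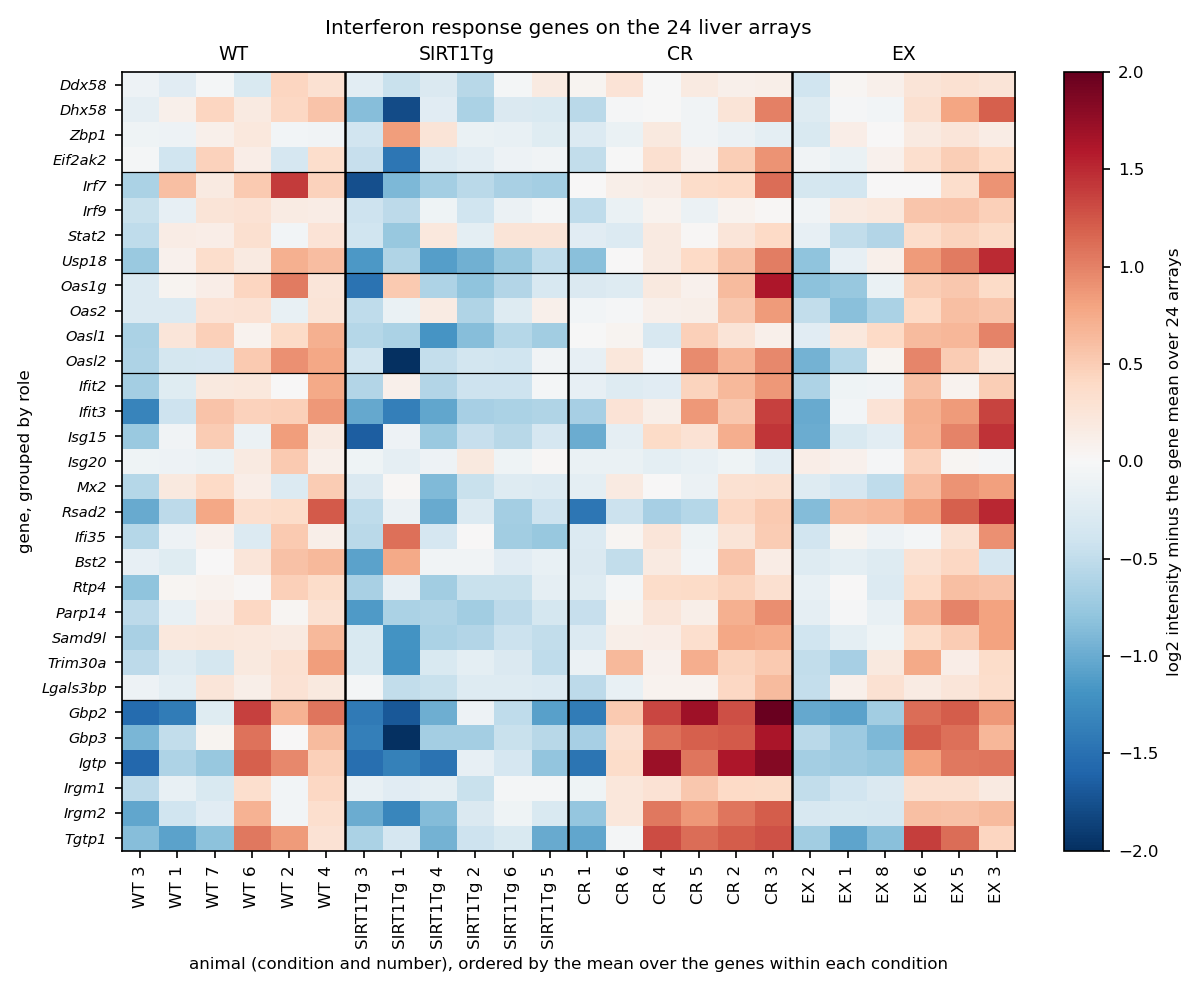
Level of the 31 measured genes (rows, grouped by role) on the 24 liver arrays (columns, by condition), as log2 intensity minus the gene's mean over the 24 arrays; the colour scale is clipped at 2 log2 units either way. Columns of SIRT1Tg are mostly blue, and WT, CR and EX each hold both blue and red columns.

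Single liver arrays show how the groups are made up. For each array the deviation of each gene from its mean over the 24 arrays was averaged over the 31 genes. In SIRT1Tg this level was -0.74, -0.54, -0.41, -0.35 and -0.34 (animals 3, 4, 2, 6 and 5), with -0.60 in the liver library labelled SIRT1Tg 1. In WT it was -0.60, -0.20, 0.09, 0.35, 0.38 and 0.47 (animals 3, 1, 7, 6, 2 and 4). The array of WT 3 thus lay among the SIRT1Tg arrays, and the other 5 lay above all of them. In CR it was -0.47 in animal 1 and 0.04, 0.28, 0.36, 0.55 and 0.79 in animals 6, 4, 5, 2 and 3. In EX it was -0.47, -0.26 and -0.15 in animals 2, 1 and 8, and 0.56, 0.62 and 0.66 in animals 6, 5 and 3. EX thus had 3 arrays low and 3 arrays high with none between. The SD over 6 arrays was 0.16 in SIRT1Tg, 0.41 in WT, 0.44 in CR and 0.51 in EX.

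All 4 transcription factors and feedback proteins measured were lower. Irf7, the factor that amplifies interferon production, read 4.64, 5.504, 5.72, 5.72, 5.74 and 5.86 in SIRT1Tg, and in WT 5.77 in WT 3 and 6.59 to 7.80 on the other 5 arrays. On 5 of the 6 SIRT1Tg arrays Irf7 was below every WT array, and 1 of these, that of SIRT1Tg 1 at 5.504, was not above background. The difference was -1.29 (SE 0.27, limma adjusted p = 0.0658). Usp18, the protease that removes ISG15 and restrains the interferon receptor, read 7.96 to 8.59 in SIRT1Tg and 8.36 to 9.81 in WT, a difference of -1.05 (SE 0.32, limma adjusted p = 0.283). Genes of the ISGF3 complex differed less: Irf9 by -0.30 (7.51 to 8.00 against 7.60 to 8.32) and Stat2 by -0.15 (5.35, not above background in the library of SIRT1Tg 1, to 6.36 against 5.58 to 6.42). Without that library Stat2 differed by -0.07. SIRT1Tg and WT overlapped in all 4 of these genes.

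Among sensors, 3 of 4 were lower. Dhx58 (LGP2, a relative of RIG-I that tunes sensing) read 4.86, 5.79, 6.01, 6.34, 6.35 and 6.42 in SIRT1Tg and 6.46, 6.75, 6.83, 7.06, 7.07 and 7.21 in WT. It was the 1 listed gene with all SIRT1Tg arrays below all WT arrays, a pattern that 0.501% of all liver features showed. The difference was -0.94 (SE 0.25, limma adjusted p = 0.160). The lowest value, in the library of SIRT1Tg 1, was not above background. Without that library the Dhx58 difference was -0.77 (limma adjusted p = 0.213). Ddx58 (RIG-I itself) read 4.86 to 5.60 against 5.11 to 5.84. Zbp1, a sensor of Z-form nucleic acid, was the gene that was not lower, with a difference of 0.03, and -0.16 without the library of SIRT1Tg 1.

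All 4 oligoadenylate synthetases measured were lower. Enzymes of this family make the messenger that activates RNase L. Oasl1, which lacks that activity and represses the translation of IRF7 in mice, read 5.91, 6.24, 6.39, 6.45, 6.51 and 6.52 in SIRT1Tg and 6.45, 7.16, 7.32, 7.47, 7.55 and 7.79 in WT. On 3 SIRT1Tg arrays Oasl1 was below every WT array, and the other 5 WT values lay above every SIRT1Tg value. The difference was -0.95 (SE 0.20, limma adjusted p = 0.0570), and -1.02 (adjusted p = 0.0421) without the library of SIRT1Tg 1. Its other probes differed by -1.25 and -0.30. Oasl2 read 5.99 to 6.41 on 5 SIRT1Tg arrays, 4.35 and not above background in the library of SIRT1Tg 1, and 5.86 to 7.39 in WT. Oas2 read 4.72 to 5.48 against 5.04 to 5.61.

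The 13 antiviral effectors and 6 GTPases measured were all lower in SIRT1Tg. Ifit3 read 7.04, 7.37, 7.39, 7.74, 7.78 and 7.81 in SIRT1Tg and 7.09, 8.00, 8.87, 8.89, 8.98 and 9.28 in WT, a difference of -0.997 (SE 0.35, limma adjusted p = 0.357). Isg15 read 5.52 to 7.07 against 6.42 to 8.00, Rsad2 (viperin, which makes a chain-terminating nucleotide) 7.57 to 8.46 against 7.57 to 9.80, and Mx2 5.31 to 6.23 against 5.64 to 6.70. In each of these 4 effectors the ranges overlapped and all 6 SIRT1Tg arrays lay below the WT mean. Gbp3, a guanylate-binding protein, read 4.73 to 6.58 against 6.12 to 8.12 (difference -1.07), and Igtp 8.40 to 9.75 against 8.34 to 11.11 (difference -0.89). Without the library of SIRT1Tg 1 the differences of Gbp3 and Igtp were -0.91 and -0.84. The SD of Igtp over the WT arrays alone was 1.10, larger than its difference. Where a gene had further probes above background, 13 of 13 had the sign of the probe used.

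CR and EX left the liver list without a gene past the threshold. In CR, 14 of 31 genes were below WT, with a median difference of 0.01, and 0 genes passed (0.271% of all features did). At an unadjusted p under 0.05 there was 1 gene, Irf9 (difference -0.32, limma adjusted p = 0.627), beside 6.66% of all features. The 3 genes of smallest p were Irf9, Rsad2 (-0.75, adjusted p = 0.836) and Isg20 (-0.21, adjusted p = 0.862), an exonuclease gene that was not above background on any CR array, so its CR level is a bound. The GTPases had a median of 0.46 with 6 of 6 above WT. Igtp read 8.45, 10.28, 10.98, 11.52, 11.63 and 11.74 in CR, with CR 1 low and the other 5 above at least 3 of the 6 WT arrays.

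In EX, 27 of 31 liver genes were above WT, with a median of 0.21, and 0 passed (0.0201% of all features did). With single arrays left out, this median ranged from 0.04 without WT 3, with 12 genes below WT, to 0.39 without WT 2, with 2 below. At an unadjusted p under 0.05 there were 2 genes, both higher, beside 8.63% of all features. The smallest p belonged to Irf9, which read 7.96, 8.21, 8.24, 8.51, 8.59 and 8.61 in EX against 7.60 to 8.32 in WT (difference 0.46, limma adjusted p = 0.422). Parp14 differed by 0.52 (adjusted p = 0.572) and Eif2ak2 (PKR, which halts translation) by 0.44 (adjusted p = 0.595). Rsad2 read 7.71, 9.20, 9.23, 9.40, 9.77 and 10.09 in EX. EX 2 was low, and the other 5 lay above at least 4 of the 6 WT arrays.

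The number series moved with these levels. In the same fits, series B was above series A for 29 of 31 genes in liver (median 0.29) and 28 of 32 in eWAT (median 0.41), and the medians were 0.16 in muscle and 0.01 in BAT. No listed gene passed for the series in any tissue, where 0%, 0.195%, 0.138% and 5.87% of all features passed in liver, eWAT, muscle and BAT. The term in the fit takes this shift into account, and since EX lies wholly in A and CR wholly in B, their comparisons lean on it. Without the term the CR medians were -0.035 in eWAT, -0.065 in BAT, 0.092 in muscle and 0.16 in liver, and the EX medians -0.25, -0.18, -0.012 and 0.079 in the same order. Within series A the mean liver level was -0.58 (range -0.74 to -0.41) in the 3 SIRT1Tg animals, 1 of them the library of SIRT1Tg 1, and -0.14 (-0.60 to 0.38) in the 3 WT animals. Within series B it was -0.41 (-0.54 to -0.34) in SIRT1Tg and 0.30 (0.09 to 0.47) in WT, without overlap. On both slides that held a SIRT1Tg and a WT liver array, 1 of each, the SIRT1Tg array was lower, by -1.21 and -0.71. In the first pair SIRT1Tg was of series A and WT of series B, and in the second the reverse. Both differences thus also hold any shift between the series.

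**Figure D2:**
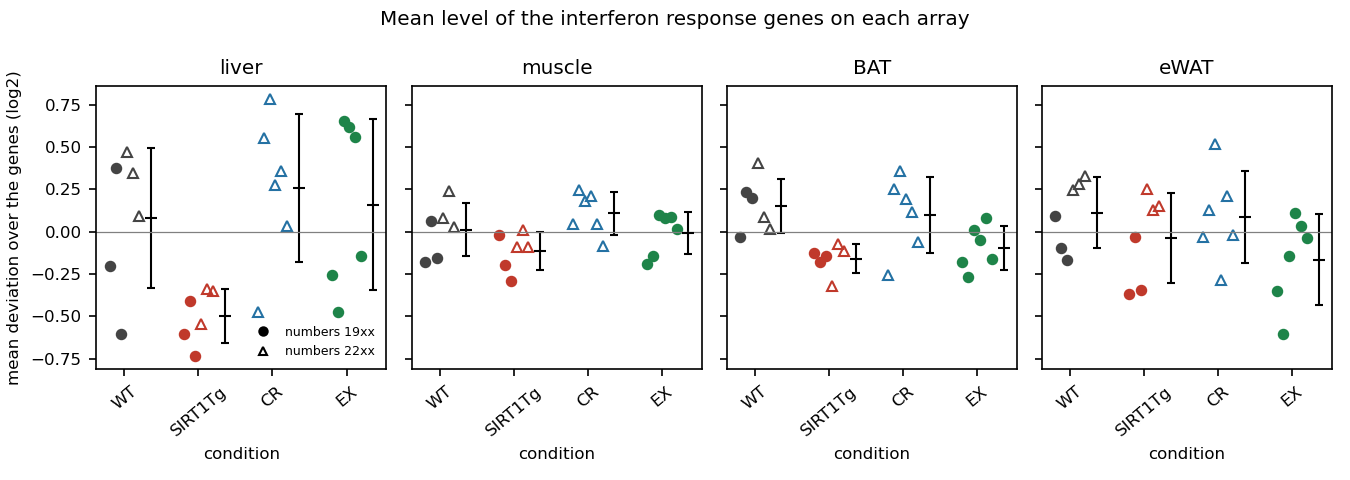
Mean deviation over the measured genes (log2) on each array, by tissue and condition; filled circles are animals of the lower number series, open triangles those of the higher, and the bars beside the points are the mean and SD of 6 arrays. Liver SIRT1Tg arrays lie between -0.74 and -0.34, and the spread within WT, CR and EX is widest in liver.

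BAT was the tissue in which listed genes passed the test, all of them antiviral effectors and all lower. Lgals3bp, a secreted glycoprotein that binds galectins and is induced by interferon, and Samd9l, a restriction factor of poxviruses, fell in SIRT1Tg and in EX, and Bst2 fell in EX. In SIRT1Tg 2 of 31 genes passed (0.389% of all features did), and in EX 3 of 31 (4.6% of all features did). In SIRT1Tg 27 of 31 genes were below WT (median -0.34), and 17, all lower, were at an unadjusted p under 0.05 beside 15.9% of all features. In EX 24 of 31 were below WT (median -0.21), with 7, all lower, at an unadjusted p under 0.05 beside 19.6%. SIRT1Tg and EX were compared with the same WT arrays.

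Lgals3bp read 9.37, 9.42, 9.58, 9.87, 10.01 and 10.53 in WT BAT. It read 8.65, 8.68, 8.97, 9.07, 9.08 and 9.09 in SIRT1Tg, 8.52, 8.66, 8.77, 8.77, 8.97 and 9.18 in EX, and 9.25 to 10.05 in CR. Every SIRT1Tg and every EX array lay below every WT array, and CR overlapped with WT. The level was 1.83-fold lower in SIRT1Tg (-0.87, SE 0.17, limma adjusted p = 0.0259) and 1.99-fold lower in EX (-0.99, SE 0.19, adjusted p = 0.00419).

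Samd9l read 7.58, 7.60, 7.99, 8.14, 8.17 and 8.26 in WT BAT, 7.13 to 7.67 in SIRT1Tg, 7.24 to 7.69 in EX and 7.39 to 7.93 in CR. The 4 higher WT arrays lay above every SIRT1Tg and EX array, and the lower 2 lay among them. The differences were -0.52 in SIRT1Tg (SE 0.11, limma adjusted p = 0.0369) and -0.62 in EX (SE 0.12, adjusted p = 0.00567). Bst2 read 6.69 to 7.49 in WT and 5.57, 6.10, 6.17, 6.18, 6.43 and 6.63 in EX, without overlap (difference -0.96, SE 0.26, adjusted p = 0.0364). In SIRT1Tg it read 6.14 to 7.25 and overlapped with WT. Parp14, an ADP-ribosyltransferase, read 7.38 to 7.62 in WT, 6.96 to 7.32 in SIRT1Tg and 6.90 to 7.38 in EX; it lay below WT without overlap in both, in EX by less than 2 decimals show, but did not pass (adjusted p = 0.141 and 0.139). Such an absence of overlap held for 2 of 31 genes in SIRT1Tg (0.589% of all features) and 3 of 31 in EX (1.16%).

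**Figure D3:**
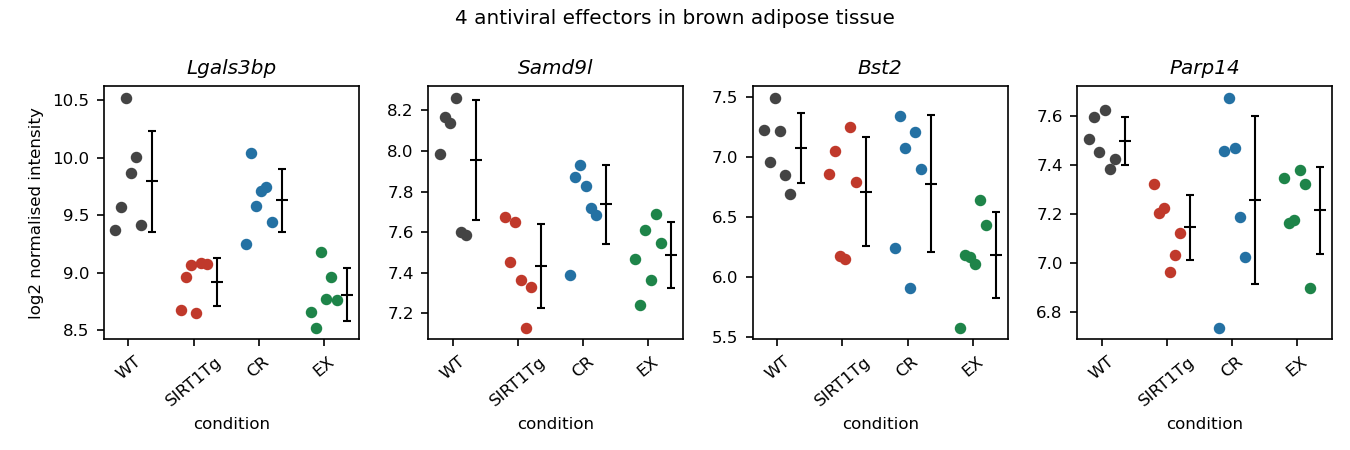
Log2 normalised intensity of Lgals3bp, Samd9l, Bst2 and Parp14 on each BAT array, by condition, with the mean and SD of 6 arrays beside the points; each panel has its own axis, which does not start at 0. Lgals3bp lies between 8.65 and 9.09 in SIRT1Tg and between 8.52 and 9.18 in EX, below the lowest WT array at 9.37.

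The EX calls of Lgals3bp and Samd9l passed under each of the 12 single arrays left out (adjusted p 0.00257 to 0.0165 and 0.00439 to 0.0185). The Bst2 call was lost with any of 7 of the 12 arrays left out (adjusted p up to 0.125). In SIRT1Tg, the Lgals3bp call was lost with 4 of the 12 left out (adjusted p up to 0.0789) and that of Samd9l with 10 of the 12 (up to 0.0833), while the differences stayed between -0.97 and -0.71 and between -0.57 and -0.42. The 3 slides of the SIRT1Tg BAT arrays held no WT BAT array, and there the effects of slide and condition cannot be told apart. With slide as a random block the SIRT1Tg differences of Lgals3bp and Samd9l were -0.87 (adjusted p = 0.0549) and -0.53 (adjusted p = 0.106), and neither passed.

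Markers of macrophages and of skeletal muscle were also examined in BAT. In EX 3 of 7 measured macrophage genes fell, where 4.6% of all features passed. These were the complement genes C1qb (-1.27, limma adjusted p = 0.0104) and C1qc (-1.07, adjusted p = 0.0206), and the lysozyme gene Lyz2 (-1.08, adjusted p = 0.0303). The summed signal of the macrophage list was 2316 to 4226 in WT, 2035 to 2414 in EX and 2105 to 2891 in SIRT1Tg. In SIRT1Tg 0 of 7 passed, 5 were below and 2 above WT, 3 had an unadjusted p under 0.05 and the median was -0.38. Clec4f and Itgam were not above background on any BAT array of these groups. Skeletal muscle genes had a median difference of 1.88 in EX and -1.33 in SIRT1Tg (0 of 5 passed in either), with summed signals of 475 to 5738 in WT, 492 to 19204 in EX and 503 to 5639 in SIRT1Tg. The part of either in the results of the listed genes was not tested, and in these whole-tissue samples fewer cells of a type and less RNA per cell cannot be told apart.

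In CR BAT no listed gene passed: 22 of 31 genes were below WT with a median of -0.07, 0 passed (0.269% of all features did) and 0 were at an unadjusted p under 0.05 (10% of all features were). The smallest p belonged to Tgtp1, an interferon-inducible GTPase above background on 2 of 6 WT arrays (0.28, limma adjusted p = 0.547). Ddx58 (0.17, adjusted p = 0.596) and Parp14 (-0.18, adjusted p = 0.709) followed.

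**Figure D4:**
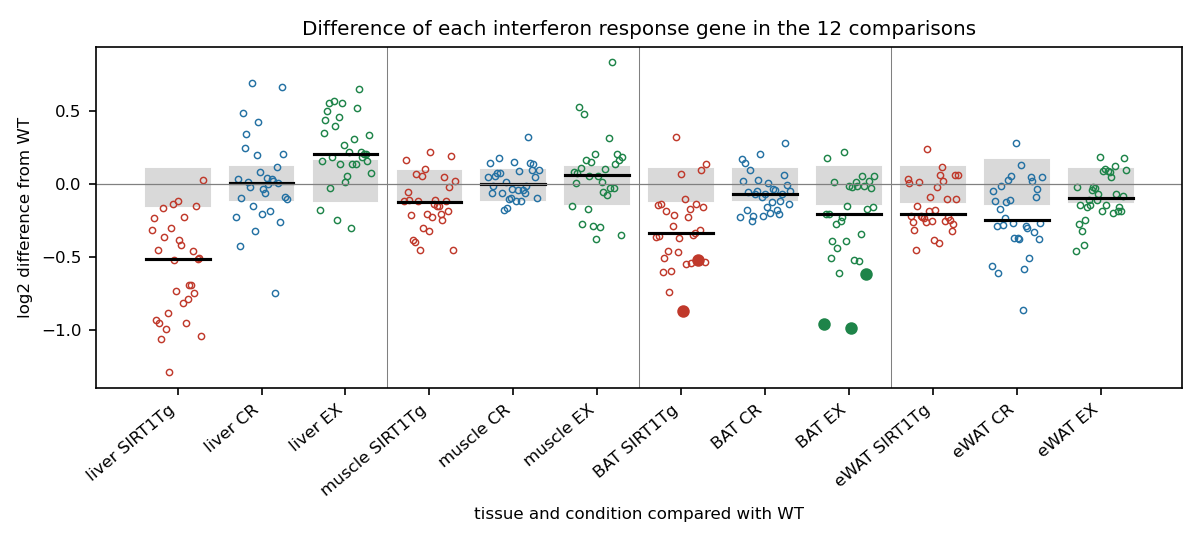
Log2 difference from WT of each measured gene in the 12 comparisons; filled points passed the adjusted p, black lines are the medians over the genes, and grey boxes span the middle of all features, from the lower to the upper quartile. The medians of liver SIRT1Tg (-0.52) and BAT SIRT1Tg (-0.34) are the lowest of the 12, and that of liver EX (0.21) is the highest.

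In muscle no listed gene passed. In SIRT1Tg 22 of 30 genes were below WT (median -0.13), with 0 passing (0.0317% of all features did) and 6 at an unadjusted p under 0.05, 5 lower and 1 higher, beside 8.46%. Igtp read 5.98 to 6.42 in SIRT1Tg and 6.42 to 6.99 in WT, and all SIRT1Tg arrays lay below all WT arrays, the nearest pair by less than 2 decimals show, as for 0.349% of all features (difference -0.45, limma adjusted p = 0.334). Usp18 (-0.45, adjusted p = 0.380) and Irf9 (-0.30, adjusted p = 0.383) followed by p. Of the further probes of all listed genes in SIRT1Tg muscle, 2 of 7 had the sign of the probe used. The other Irf9 probe differed by 0.03 and the other Usp18 probe by -0.25.

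In CR muscle the median was 0.00 with 15 of 30 genes below WT, 0 passing (0% of all features) and 0 at an unadjusted p under 0.05 (6.11% of all features). The smallest p belonged to Ddx58 (0.14, limma adjusted p = 0.899), which was not above background on any WT muscle array, Irf9 (-0.16, adjusted p = 0.899) and Igtp (-0.18, adjusted p = 0.914). In EX muscle the median was 0.07, 11 of 30 genes were below WT, and 0 passed (2.03% of all features did). At an unadjusted p under 0.05 there were 6, 3 higher and 3 lower, beside 16.3%. Rsad2 had the largest difference, reading 6.93, 7.71, 7.80, 7.91, 8.05 and 8.22 in EX and 6.01, 6.87, 6.998, 7.11, 7.69 and 7.72 in WT (0.83, SE 0.28, adjusted p = 0.111). The groups overlapped, and 4 EX arrays lay above every WT array. Ifit2 (0.48, adjusted p = 0.146) and Usp18 (-0.35, adjusted p = 0.245) had the next smallest p.

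In eWAT no listed gene passed either. In SIRT1Tg 23 of 32 genes were below WT (median -0.20), 0 passed (0.0594% of all features did) and 2, both lower, were at an unadjusted p under 0.05 beside 9.07%. These were Eif2ak2 (-0.26, limma adjusted p = 0.394) and Samd9l (-0.25, adjusted p = 0.433), and Stat2 followed (-0.32, adjusted p = 0.580). In the same comparison T and NK cell genes had a median of -0.99 (6 of 7 at an unadjusted p under 0.05, 0 passed) and B cell genes of -1.02 (3 of 4, 0 passed). The summed T and NK cell signal was 1837 to 1961.2 in SIRT1Tg and 1692 to 2754 in WT, and the B cell signal 694.3 to 925.9 and 775.1 to 2468. Cd8a and Gzmb of the T and NK cell list and Jchain of the B cell list were not above background in either group, and the part of these cells was not tested. As in BAT, the 3 slides of the SIRT1Tg arrays held no WT array of the tissue. In EX 23 of 32 were below WT (median -0.10), 0 passed (0.00848% of all features did) and 0 were at an unadjusted p under 0.05 (4.13% of all features). Samd9l (-0.19), Ifi35 (-0.25) and Bst2 (-0.46) had the smallest p, each with an adjusted p near 1.

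In CR eWAT 25 of 32 genes were below WT (median -0.25), 0 passed (3.61% of all features did) and 5, all lower, were at an unadjusted p under 0.05 beside 14.6%. Oas1g, an oligoadenylate synthetase, read 5.74, 6.10, 6.30, 6.33, 6.46 and 7.18 in CR and 6.17, 6.48, 6.51, 6.88, 7.30 and 7.44 in WT (-0.87, SE 0.27, limma adjusted p = 0.0897). The array of CR 3 at 7.18 stood above the other CR arrays, and without it the difference was -1.03 (adjusted p = 0.0305; 3.08% of all features passed). Without the number series term it was -0.44 (adjusted p = 0.505), and the median over the listed genes was -0.035 with 18 of 32 below WT. Samd9l read 9.64 to 10.01 against 9.98 to 10.33 (-0.33, adjusted p = 0.110), and Eif2ak2 differed by -0.29 (adjusted p = 0.175). Here 4 of 7 macrophage genes (C1qa, C1qb, C1qc and Lyz2, -1.42 to -1.30) and 4 of 7 T and NK cell genes (Cd3d, Cd3e, Cd3g and Nkg7) fell. The summed signal of the macrophage list was 5031 to 7159 in CR and 7523 to 15862 in WT, without overlap, and that of the T and NK cell list 1532 to 1848 against 1692 to 2754. Clec4f and Itgam were not above background in either group. Cd8a, Cd4 and Gzmb of the T and NK cell list were likewise not above background in WT or CR. The part of these cells in the differences of the listed genes was not tested.

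Whether a change differed between tissues was tested with the interaction of condition and tissue over all 96 arrays, for 30 listed genes measured in all 4 tissues. The SIRT1Tg difference differed between tissues for 2 of them (0.0967% of all features), the CR difference for 0 (2.34%) and the EX difference for 0 (0.689%). Irf7 was -1.29 in liver, -0.23 in eWAT, -0.29 in BAT and 0.06 in muscle (limma F test, adjusted p = 0.0214). Oasl1, with the probe that was brightest over all tissues, was -1.25 in liver, 0.03 in eWAT, -0.10 in BAT and -0.15 in muscle (adjusted p = 0.0208). That probe was above background on 6 of 24 arrays in muscle and 11 of 24 in BAT, and Irf7 on 7 of 24 in muscle. A probe near background cannot fall much further, which limits the differences that could be seen there. Without the liver library labelled SIRT1Tg 1, Irf7 passed (liver -1.34, adjusted p = 0.0254) and Oasl1 did not (liver -1.07, adjusted p = 0.109). In this fit, which shares its estimate of the spread over the tissues, 8 listed genes passed for the SIRT1Tg difference within liver: Irf7, Oasl1, Samd9l, Dhx58, Usp18, Ifit3, Parp14 and Gbp3, all lower, beside 1.47% of all features. Without the liver library labelled SIRT1Tg 1 there were 7, also all lower (1% of all features): Irf7, Oasl1, Usp18, Oas1g, Samd9l, Parp14 and Dhx58. In the fit of liver alone, with all its arrays, 0 of 31 passed. The SD of Irf7 within conditions was 0.51 in liver, 0.35 in eWAT, 0.22 in BAT and 0.16 in muscle. For Gbp3 it was 0.81, 0.57, 0.39 and 0.36. Where a gene spreads more in liver, the shared estimate lies below the liver spread, and its liver p-value tends to be too small. The tests between tissues use the same estimate.

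The tissues themselves differed in the level of these genes in WT mice. With all arrays normalised together, 31 of 32 genes differed between the 4 tissues (limma F test; 79.1% of all features did), and muscle had the lowest mean for 27 of them. Liver had the highest mean for 19, eWAT for 12 and muscle for 1. The arrays of the highest tissue lay wholly above those of the other 3 for 13 genes, 9 in liver and 4 in eWAT, a pattern of 29.4% of all features.

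Irf7 read 6.97 ± 0.65 (SD, n = 6) in WT liver, 5.31 ± 0.33 in eWAT, 5.03 ± 0.15 in BAT and 4.47 ± 0.15 in muscle, where it was above background on 1 of 6 arrays. Liver stood apart from eWAT, eWAT and BAT overlapped, and BAT stood apart from muscle. Usp18 read 9.31 ± 0.48 in liver, 6.80 ± 0.23 in eWAT, 6.71 ± 0.24 in BAT and 6.53 ± 0.29 in muscle, with liver apart and the other 3 overlapping in order. Lgals3bp followed another order, with 11.33 ± 0.56 in eWAT, apart from 10.09 ± 0.18 in liver, which overlapped with 9.90 ± 0.42 in BAT, and 7.92 ± 0.19 in muscle, apart from BAT. Samd9l was likewise highest in eWAT (9.81 ± 0.15), apart from liver (8.78 ± 0.39). Ifit3 read 8.59 ± 0.77 in liver and 8.11 ± 0.46 in eWAT, which overlapped. Oas1b was the gene that did not differ by the test (adjusted p = 0.357), and it was near background in all tissues.

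Across arrays the listed genes varied together, most so in liver. After condition means were subtracted, the mean correlation between pairs of listed genes was 0.54 over the 24 liver arrays, 0.22 in muscle, 0.22 in BAT and 0.37 in eWAT, and between pairs of other features it was 0.01, 0.00, 0.01 and 0.01. These arrays share normalisation, slides and, within WT and SIRT1Tg, both number series, and the values are descriptions. With the number series removed together with condition, a setting chosen after the data were seen, the mean between listed genes was 0.54 in liver, 0.31 in eWAT, 0.23 in BAT and 0.20 in muscle. In liver 27 of 31 genes had r above 0.5 with the mean of the other listed genes (5.71% of other features did). Usp18 had the highest r, 0.93, and Zbp1 the lowest, 0.21. In eWAT 3 listed genes ran against the rest, Isg20 (r = -0.54), Irf9 (-0.52) and Samd9l (-0.20). Some eWAT arrays had a high signal of epididymis genes, and its part in these values was not tested.

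The spread within conditions was large for 5 of the 6 GTPases in liver. Gbp2 had an SD of 1.08 log2 units and Igtp of 1.002, at the percentiles 99.8 and 99.7 of all liver features, and Irgm2, the lowest of the 5, was at percentile 96.4. Irgm1 had an SD of 0.29, and it, Irf9 (0.24) and Ddx58 (0.24) were nearer the median of all features, 0.26. The 10 features outside the list with the highest r with its mean over the 24 liver arrays were Cxcl10, Samhd1, Hk3, Hk2, Cxcl9, Apol9b, Anxa2, Shisa5, Glipr2 and Akna, with r from 0.93 for Cxcl10 to 0.89 for Akna. Cxcl10 and Cxcl9 encode chemokines induced by interferon gamma, Samhd1 a nucleotide hydrolase that restricts retroviruses, and Hk2 and Hk3 are hexokinases. Cxcl10, Cxcl9 and Apol9b were on the list of other interferon-stimulated genes.

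An animal's level in one tissue was set against its level in another for 3 genes, Irf7, Isg15 and Ifit3, over the 6 pairs of tissues (18 relations; deviations from condition means, a two-sided permutation test of 100000 resamples within conditions, Benjamini-Hochberg adjusted over the 18). Ifit3 passed in 3 pairs. Between liver and eWAT its r was 0.67 over 21 animals (permutation p = 0.00048, adjusted p = 0.00864; rho = 0.71, p = 0.00035, adjusted p = 0.0063), 0.70 without the 2 animals farthest from the median, and 0.55 and 0.72 within series A and B. Between liver and muscle r was 0.61 over 24 animals (permutation p = 0.00541, adjusted p = 0.0325; rho = 0.59, p = 0.00714, adjusted p = 0.0428), 0.56 without the 2 farthest animals, 0.73 within series A and 0.37 (permutation p = 0.340) within series B. Between muscle and BAT r was 0.62 over 24 animals (permutation p = 0.00299, adjusted p = 0.0269; rho = 0.62, p = 0.0042, adjusted p = 0.0378), 0.60 without the 2 farthest, and 0.60 and 0.69 within series A and B. The widest gap between neighbouring animals in Ifit3 was 23.8% of the range or less. It was taken only in the first named tissue of each pair, so eWAT was not examined. Such a gap cannot exclude clusters. The 2 farthest animals were likewise chosen in the first named tissue.

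The other 3 pairs of Ifit3 and every relation of Irf7 and Isg15 did not pass: r was 0.25 to 0.54 for Ifit3, -0.19 to 0.42 for Irf7 and 0.01 to 0.50 for Isg15. Liver arrays never shared a slide with another array of the same animal, while the BAT and eWAT arrays of an animal always did (21 of 21). Over all listed genes measured in both tissues, the median r was 0.30 for liver and muscle (28 of 29 above 0), 0.34 for liver and BAT (24 of 31) and 0.33 for liver and eWAT (31 of 31). The same median over other features was 0.03, 0.05 and 0.03, and 55.6%, 57.3% and 54.0% of them were above 0. For BAT and eWAT the median was 0.18 for the listed genes (23 of 31 above 0) and 0.22 for the other features (75.7%). For muscle and BAT it was 0.24 (22 of 29) and 0.06 (58.7%), and for muscle and eWAT 0.12 (21 of 29) and 0.06 (58.5%).

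**Figure D5:**
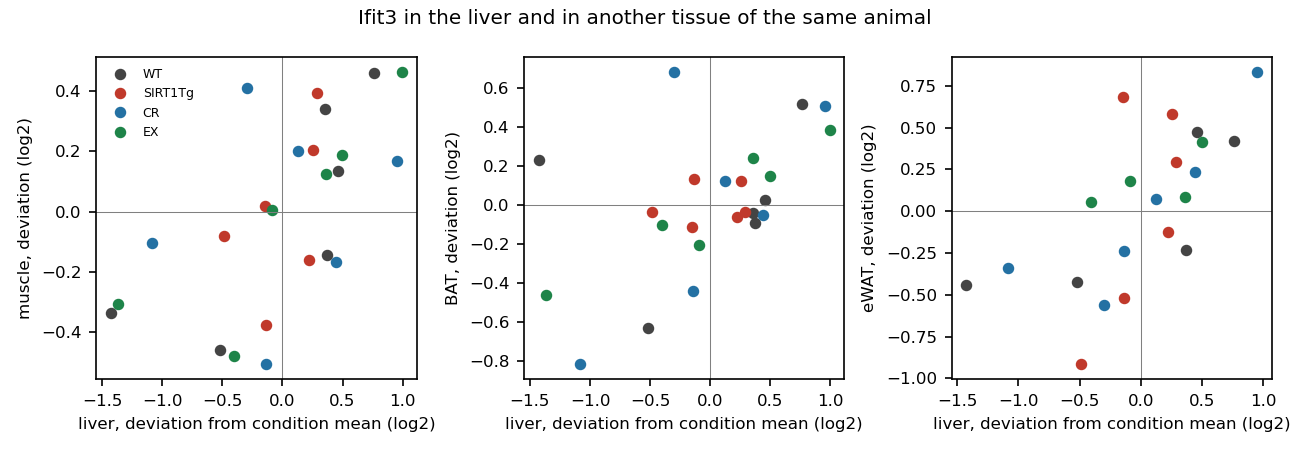
Ifit3 in liver (horizontal axis) against muscle, BAT and eWAT (vertical axes) of the same animal, as log2 deviation from the condition mean in that tissue; each point is an animal, coloured by condition. Animals low in liver tend to lie low in muscle (r = 0.61) and in eWAT (r = 0.67).

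Some single animals were high or low in several tissues. The mean level over the listed genes of CR 3 was 0.79 in liver, 0.52 in eWAT, 0.36 in BAT and 0.18 in muscle, the highest of the CR animals in liver, BAT and eWAT. CR 1 had -0.47 in liver and -0.26 in BAT, the lowest of its group in both, but 0.04 in muscle and -0.03 in eWAT. EX 2 was lowest in liver (-0.47) and BAT (-0.27). WT 3 was lowest in liver (-0.60) but read 0.20 in BAT.

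Genes upstream of the response were examined from further lists. Of the interferon genes, Ifna2, Ifna4, Ifnb1 and Ifnk were not above background on any WT array of liver or BAT. The same held for the receptor gene Ifnar1. In liver SIRT1Tg, 0 of 6 ligand and receptor genes, 0 of 13 JAK-STAT and IRF genes and 0 of 7 genes of nucleic acid sensing passed, with medians of -0.18, -0.18 and -0.05. In the same order, 6 of 6, 11 of 13 and 5 of 7 were below WT, beside 54.7% of all features. At an unadjusted p under 0.05 there were 1, 4 and 1, beside 10.2% of all features. Of 32 other interferon-stimulated genes measured in liver, 29 were below WT in SIRT1Tg (median -0.37), 12 were at an unadjusted p under 0.05 and 0 passed. Liver macrophage genes had a median of -0.34 with 0 of 8 passing and 0 at an unadjusted p under 0.05, and hepatocyte genes a median of 0.10. The summed macrophage signal was 1621 to 3381 in SIRT1Tg, its lowest value included, and 2499 to 4523 in WT. Itgam was not above background on any of these arrays, and the part of macrophages in the liver levels was not tested.

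In BAT, 3 of 29 other interferon-stimulated genes fell in EX, where 4.6% of all features passed: B2m (-0.61, limma adjusted p = 0.00901), the light chain of MHC class I, Cxcl9 (-0.997, adjusted p = 0.0119) and Psmb10 (-0.58, adjusted p = 0.0137), a subunit of the immunoproteasome. Socs3, an inhibitor of JAK signalling, fell in EX (-0.40, adjusted p = 0.0179) and in SIRT1Tg (-0.38, adjusted p = 0.0447). In CR eWAT, where 3.61% of all features passed, 3 of 35 fell: Cxcl10 (-0.89, adjusted p = 0.00559), Epsti1 (-1.04, adjusted p = 0.0139) and Slfn1 (-0.76, adjusted p = 0.0381). Of 13 JAK-STAT and IRF genes 2 fell there, the factor Irf5 (-1.32, adjusted p = 0.00257) and the kinase Tyk2 (-0.43, adjusted p = 0.0465). Of 10 genes of nucleic acid sensing 2 fell, the kinase Ikbke (-0.76, adjusted p = 0.0432) and the RNA receptor Tlr7 (-0.95, adjusted p = 0.0161).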

How the data were processed

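RNA of 4 tissues was measured on 96 arrays, 24 a tissue, by Illumina bead array. The deposited scanner tables hold the intensity of each probe without normalisation, and the deposited series matrix holds log2 values with an unstated normalisation; GenomeStudio and Partek are named per the submitters' processing notes. Groups came from the labels, and p-values measure the spread between animals.

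For each array, background was taken as the mode of the log2 intensities (bandwidth 0.03) and removed by normexp with an offset of 16, and the 24 arrays of a tissue were quantile normalised. A probe was above background where it exceeded the upper 0.05 tail of that background, and was kept when this held on at least 6 arrays. The brightest probe stood for a gene. limma 3.58.1 in R 4.3.3 fitted condition and number series in each tissue, with Benjamini-Hochberg adjustment over all features and a threshold of 0.05. Same-animal relations were tested with scipy 1.17.1 on Python 3.11.15. The number of arrays limits the precision. The code was tested on simulated data.

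Of all probes, 23978 had 1 symbol and 1719 none. Promoter windows are RefSeq sequence (GRCm38.p6), matched by symbol. The listed genes, the further lists and the tests were chosen with earlier results of these data known. Genes named are index members chosen by role in liver, members past the threshold in a comparison or the 3 of smallest p where none passed, the 10 most similar features outside the list, and members not above background; others named were chosen after their values were seen. Animal numbers link the tissues of an animal (21 of 27 animals had all 4), so the tests across tissues were repeated with the animal as a block. Alternatives were the deposited log2 values, no background correction, an offset of 50, median scaling, other detection filters, other terms for series and slide, array weights, and each array left out.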

Additional observations from a re-analysis of the deposited data

Results flagged for a closer look

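Single arrays stood apart in 5 of the 80 groups of 6 arrays looked at (the mean level in each tissue, the index genes in liver and 3 genes in BAT), where chance gives about 1 in 20. Irf7 read 4.64 in SIRT1Tg 3 and 5.504 to 5.86 in the other 5. In CR, Irf7 read 7.52 in CR 3 against 6.40 to 6.80, and Irf9 read 7.52 in CR 1 against 7.91 to 8.11. In EX, Rsad2 read 7.71 in EX 2 against 9.20 to 10.09. Oasl2 read 4.35, not above background, in the liver library labelled SIRT1Tg 1 against 5.99 to 6.41 in the other SIRT1Tg arrays, and that library also had the fewest probes above background.

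The SIRT1Tg difference was not the same in the 4 tissues for Oasl1 (limma F test, adjusted p = 0.0208) and Irf7 (adjusted p = 0.0214), both lowest in liver. Without the library of SIRT1Tg 1 the adjusted p was 0.109 for Oasl1 and 0.0254 for Irf7.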

How the results depend on the processing

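Over the 12 comparisons, 167 of 176 medians over the listed genes and 154 of 176 counts past the threshold kept their value within the replicate spread or within 1.5 times under the alternatives other than leaving out each array in turn. In BAT the SIRT1Tg median was -0.13 with the deposited values, -0.12 without background correction, -0.19 with an offset of 50 and -0.22 without a detection filter, and the EX median was -0.076 and -0.067 under the first 2 of these and -0.40 in the joint fit with slide as a fixed term. Of the 176 medians 17 changed sign, 8 in liver CR, 7 in muscle CR and 2 in muscle EX, whose medians lay near 0; in that joint fit they were -0.11 in liver CR, -0.17 in muscle CR and -0.087 in muscle EX. The liver SIRT1Tg median ranged from -0.72 with median scaling to -0.33 with the deposited values, and the eWAT CR median from -0.36 with median scaling to -0.035 without the series term. The cause was not tested. Genes past the threshold in liver SIRT1Tg (with the share of all features) numbered 1 among probes detected on all 24 arrays (0.303%). They numbered 1 without the array of SIRT1Tg 1 (0.211%), 2 with slide as a random block (0.14%) and 2 with array weights (0.602%). In the joint fit they numbered 8 without slide (1.47%) and 10 with slide as a fixed term (1.2%). The joint fit without slide and without the liver array of SIRT1Tg 1 gave 7 (1%, added after the data were seen). The joint fit has more arrays to estimate the spread, but its shared estimate lies below the liver spread for genes that spread more there. In BAT SIRT1Tg the genes past the threshold numbered 1 without a filter (0.109%), 1 without the series term (0.309%) and 0 in series A or B alone (0.02% in each). They numbered 0 with slide as a random block (0.0698%), and 1 (0.278%) and 0 (0.0242%) in the joint fit without and with slide. In eWAT CR they numbered 1 with the deposited values (4.37%), 3 with median scaling (4.86%), 2 with array weights (10.9%), and 1 in the joint fit without (6.31%) and with slide (5.55%). In muscle they numbered 1 in SIRT1Tg (0.392%) and 1 in EX (3.89%) within series A, and 2 in SIRT1Tg with array weights (0.677%). Bst2 in BAT EX did not pass without a filter (adjusted p = 0.0724) or with array weights (adjusted p = 0.0653).

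With each array left out in turn, the counts ranged from 0 to 2 in liver SIRT1Tg (1 without SIRT1Tg 1, and 2 without WT 3, where 0.12% of all features passed), 0 to 1 in muscle EX (1 without EX 1, beside 2.18%), 0 to 3 in BAT SIRT1Tg and 0 to 1 in eWAT CR (1 without CR 3, beside 3.08%). In BAT SIRT1Tg the count was 0 without SIRT1Tg 1, SIRT1Tg 3, SIRT1Tg 4 or WT 6, where 0.0399% to 0.12% of all features passed. It was 1 without SIRT1Tg 2, SIRT1Tg 5, SIRT1Tg 6, WT 2, WT 3 or WT 4 (0.12% to 0.359%). It was 2 without WT 7 (0.279%) and 3 without WT 1 (1.57%). Without the 2 farthest animals, r of Irf7 between liver and eWAT was 0.69 (permutation adjusted p = 0.0396) and that of Ifit3 between liver and BAT 0.67 (adjusted p = 0.0232), both then past the threshold, and Ifit3 between liver and muscle had r = 0.37 in series B alone. With the animal as a block, the listed genes whose difference varied between tissues numbered 2 in SIRT1Tg, 0 in CR and 0 in EX. Those whose WT level did numbered 31, so this pairing changed no count of listed genes. Of all 8277 features, 8, 239 and 102 passed with the block in SIRT1Tg, CR and EX, and 8, 194 and 57 without it. Dim probes limit what can be measured, since 7 or more listed genes with a probe were not tested in liver, muscle and BAT, and 6 in eWAT.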
